A study of Homo sapiens with 8 samples.

Results

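Giant atypical cadherins are cell surface proteins whose extracellular part is a long chain of cadherin repeats. Here they comprise FAT1, FAT2, FAT3 and FAT4, the Dachsous genes DCHS1 and DCHS2, and CELSR1, CELSR2 and CELSR3, which is 9 of the 19943 protein-coding genes examined. Their binding by YTHDF2, a cytoplasmic reader of N6-methyladenosine (m6A) that recruits mRNA decay factors, was taken from a list of single-nucleotide binding sites. A site was counted for a gene when its position lay inside the GRCh38 span of that gene on the gene's strand, and 107 of the 37613 distinct positions in the list did so. The genes were chosen by their numbers of sites in this same list, so those numbers are a description and no test was made on them.

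The sites come from iCLIP2, in which ultraviolet light fixes a protein to the RNA it touches and reverse transcription halts at the crosslinked base. YTHDF2 was precipitated with an antibody from wild-type HEK293T cells, an established line of human embryonic kidney cells, in 8 libraries. In 4 libraries the cells had received 20 µM STM2457, an inhibitor of the m6A methyltransferase METTL3, in 0.2% DMSO, and in the other 4 they had received 0.2% DMSO alone, in both cases for 12 h. The list carries no library or treatment, so values of STM2457 and DMSO cells could not be set side by side, and replicate spread and read depth are unknown. The sequence around the sites, the boundaries of exons and the level of each mRNA were not used here.

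In animals, Fat and Dachsous proteins bind each other across neighbouring cells, and in mammals FAT4 and DCHS1 form such a pair. The signal orients cells within the plane of a tissue, called planar cell polarity, and feeds into the Hippo pathway of growth control. CELSR proteins, the relatives of fly Flamingo, bind their own kind on the next cell and combine cadherin repeats with the membrane-spanning part of an adhesion G protein-coupled receptor. They belong to the core set of planar cell polarity proteins.

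Of the 9 genes, 7 had at least 1 site, where 37.2% of all protein-coding genes had one. FAT1, which links cell contacts to the actin cytoskeleton, held 62 of the 107 sites (57.9%). CELSR2 had 14 sites, FAT4 and CELSR1 10 each, FAT3 and CELSR3 4 each and DCHS1 3. FAT2 and DCHS2 had 0, and no position lay on the opposite strand of any of the 9 genes. The strand was given by the RefSeq promoter table for 5 of the 9, and otherwise by the majority of the gene's own sites. The FAT genes together had 76 sites, the CELSR genes 28 and the Dachsous genes 3.

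The 7 bound genes had a median of 10 sites, against 3 over the 7421 genes with a site. Having 10 or more sites was true of FAT1, FAT4, CELSR1 and CELSR2, which is 4 of 7, and of 12.5% of all genes with a site. Only 1 gene had more sites than FAT1, while 293 had more than CELSR2, 730 more than FAT4 or CELSR1, 2869 more than FAT3 or CELSR3 and 3595 more than DCHS1. Within the FAT genes the numbers therefore ran from 62 in FAT1 through 10 in FAT4 and 4 in FAT3 to 0 in FAT2.

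Per kb of genomic span, introns included, the order was different. CELSR2, whose gene spans 26.2 kb, had 0.534 sites per kb, and FAT1, at 139 kb, had 0.446. CELSR3 had 0.151, DCHS1 0.0870, CELSR1 0.0567, FAT4 0.0562 and FAT3, with a span of 672 kb, 0.00596 sites per kb. The median of the 7 genes was 0.0870 sites per kb and that of all genes with a site 0.106. CELSR2 and FAT1 exceeded 86.3% and 83.4% of all genes with a site by this density, and FAT3 exceeded 2.40%. With sites at or above the median score alone, DCHS1 had none, the median of the other 6 was 0.0303 and that of all genes 0.0721, and FAT1 with 0.266 came before CELSR2 with 0.229 sites per kb.

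Sites of FAT1 were gathered into a few short stretches separated by long empty ones. Chaining sites that lay no more than 1 kb apart gave 8 runs of at least 2 sites and 2 single sites. The 2 largest runs held 36 of the 62 sites (58.1%) in 6.44 kb, out of the 121 kb between the outermost sites. All positions are on chromosome 4, on the minus strand, so the 5′ end of the gene has the higher coordinate.

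The 5′ run of FAT1 held 16 sites in 2.82 kb, from 186706859 to 186709677, and began 17.0 kb from the 5′ end of the gene. Scores in it had a median of 20.9, and 8 of the 16 sites were at or above the upper quartile of the whole list, 20.8. The score is the authors' own number for a site, on a scale not given in the sources used here, and it is used only for ranks within the list. The highest score of the gene, 252, was at the 5′-most site of this run, 186709677, and sites at 186708244 and 186709397 scored 138 and 76.7.

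The central run held 20 sites in 3.62 kb, from 186617944 to 186621561, between 30.1 and 33.8 kb from the 3′ end. Its median score was 17.0, and 8 of its 20 sites were at or above that quartile. The 2 sites with the highest scores lay at its opposite ends, with 173 at 186617944 and 87.0 at 186621561. Between the 5′ and the central run, 85.3 kb held only 4 sites, of which the single site at 186663478 scored 8.22.

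Toward the 3′ end of FAT1, 22 sites lay beyond the central run. They formed runs of 4 sites from 186603228 to 186603931, 4 from 186600068 to 186600329, 5 from 186596554 to 186596895 and 6 from 186588556 to 186589091, plus a pair at 186606089 and 186606116 and a single site at 186611676. The highest score among them was 60.2, at 186596895. Over the 26 sites outside the 2 largest runs the median score was 7.66, against 17.1 inside them, and each of the gene's 5 sites in the top 5.00% of the list lay inside.

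**Figure D1:**
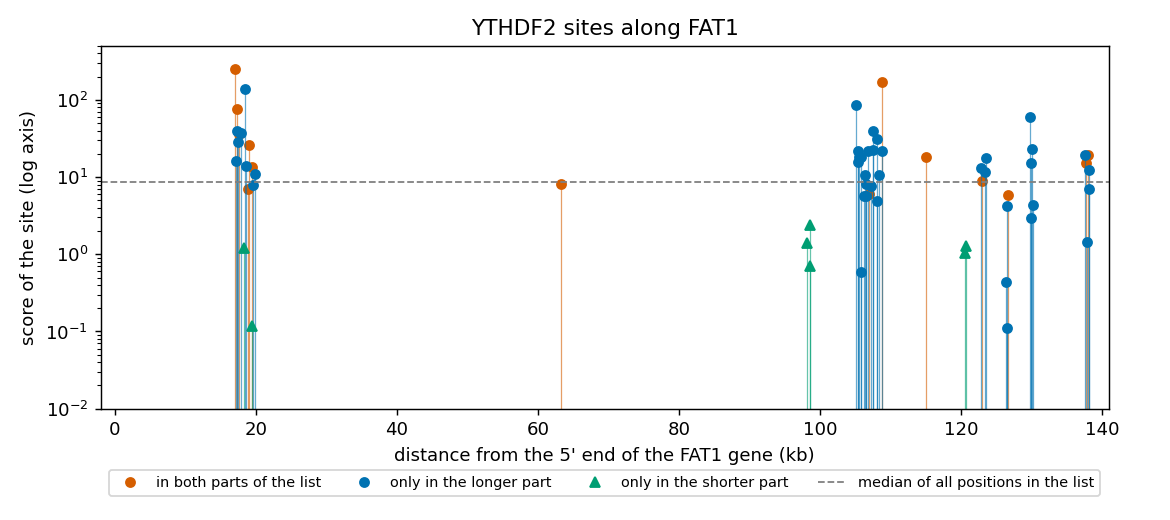
Score of each of the 62 FAT1 sites (log axis) against its distance in kb from the 5′ end of the gene, with symbols for the part of the list that holds it and a dashed line at the median of all positions, 8.67. The sites form a 5′ run of 16, a central run of 20 and smaller runs toward the 3′ end.

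The CELSR genes shared an arrangement with a group of sites near each end and none between. Of their 28 sites, 20 lay within 10 kb of the 5′ end, 8 within 10 kb of the 3′ end and 0 elsewhere. CELSR1, which polarises hair follicles in mouse skin, spans 176 kb and had 6 sites between 1.38 and 3.43 kb from its 5′ end, at 46534190 to 46536236 on chromosome 22, minus strand. Its other 4 lay within 94 nt, at 46362908 to 46363001, and the 171 kb between the groups, 97.0% of the span, held none.

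CELSR2, which acts in the placement of cilia on mouse ependymal cells, had 12 of its 14 sites in 2.03 kb at 109251254 to 109253286 on chromosome 1, plus strand. That run started 1.72 kb from the 5′ end, and its sites lay a median of 151 nt apart. Its remaining sites, at 109274654 and 109274723, were 1.10 and 1.03 kb from the 3′ end and scored 38.1 and 0.0494, the highest and the lowest of the gene. CELSR3, which is needed for axon tracts in the mouse brain, had sites at 48659876 and 48659266 on chromosome 3, minus strand, 3.01 and 3.62 kb from its 5′ end, and at 48639989 and 48637173 near its 3′ end. Their scores were 9.10, 5.26, 2.29 and 5.97 in that order. For CELSR2 and CELSR3, which span 26.2 and 26.4 kb, the zone outside both ends was only 6.21 and 6.42 kb long, whereas in CELSR1 it was 156 kb.

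FAT4, the receptor for DCHS1, had 6 of its 10 sites between 1.45 and 6.27 kb from its 5′ end, at 125316409 to 125321225 on chromosome 4, plus strand. A pair at 125451277 and 125451833 followed 130 kb further on, and another pair at 125490186 and 125490608 lay 2.75 and 2.32 kb from the 3′ end. The last of these had the highest score of the gene, 12.1, and the median was 3.98. DCHS1 had 3 sites on chromosome 11, minus strand, at 6640627, 6623835 and 6622660, which scored 0.270, 8.17 and 4.13. FAT3, which shapes the dendrites of amacrine neurons in the mouse retina, had a site at 92352829 on chromosome 11, plus strand, 128 kb from its 5′ end, with a score of 16.6, and its other 3 were within 29.5 kb of the 3′ end.

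**Figure D2:**
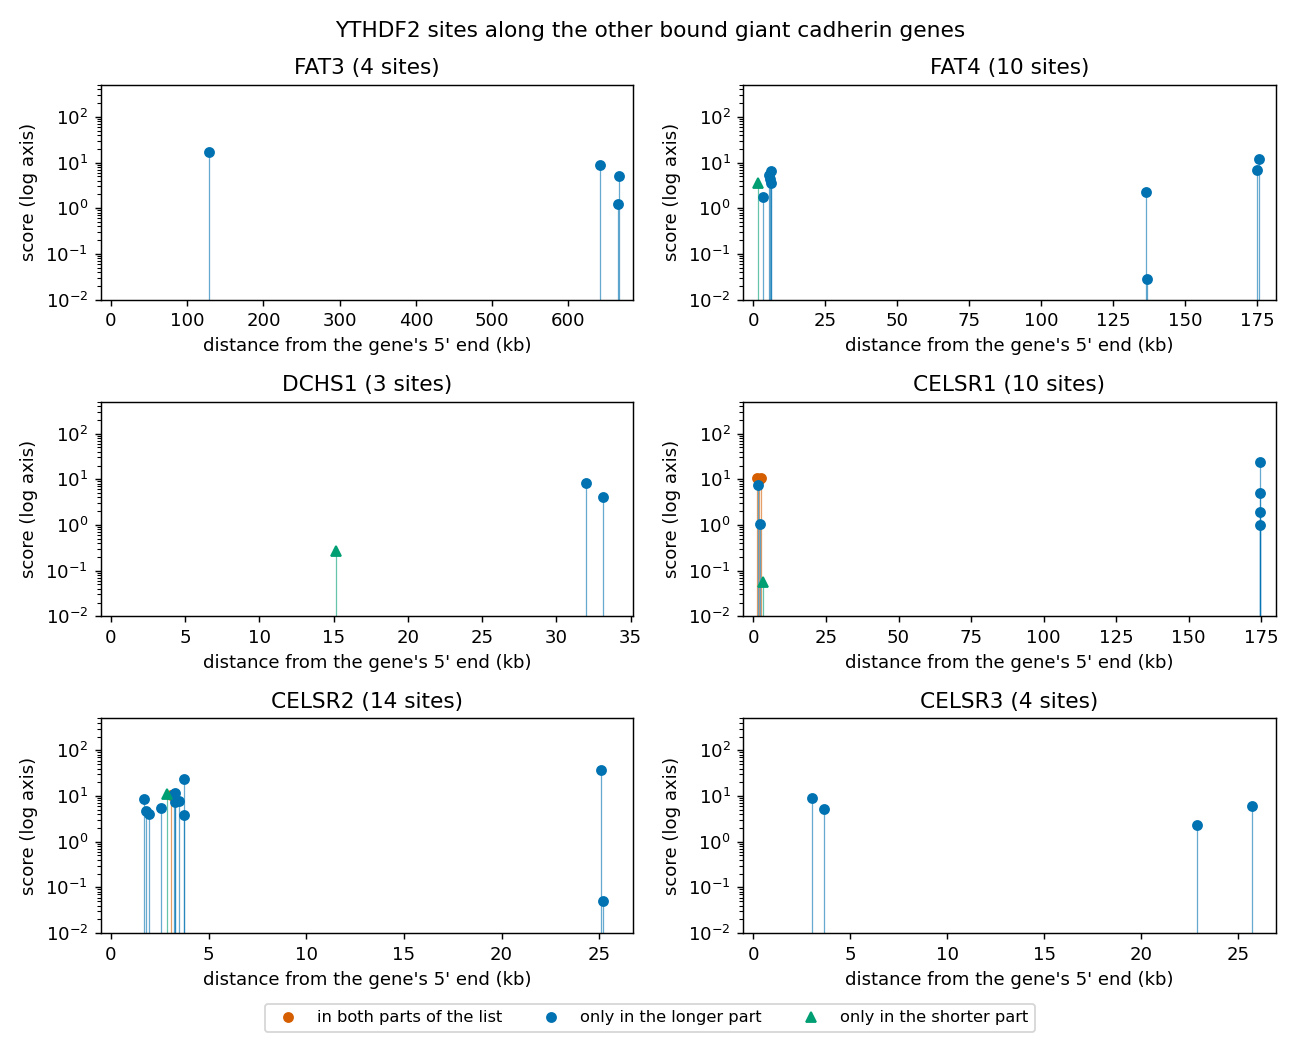
Score of each site (log axis) against its distance in kb from the 5′ end of the gene in FAT3, FAT4, DCHS1, CELSR1, CELSR2 and CELSR3, with colours and symbols for the part of the list that holds it. The 3 CELSR genes have sites near both ends and none between, and FAT4 has 6 of 10 sites in its first 6.27 kb.

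Site positions along these genes were set beside those of all genes spanning 20 kb or more, as shares of sites with exact (Clopper-Pearson) 95% intervals that cover counting only. The zones were chosen after the positions had been seen, sites of 1 gene are not independent, and no test was made. Beyond the 20 kb limit, genes were not matched for span. Of the 45 sites in giant cadherins other than FAT1, 26 (57.8%, interval 42.2 to 72.3) fell in the first 10 kb, against 2578 of 24888 sites (10.4%) over all such genes. These were 12 in CELSR2, which spans only 26.2 kb, 6 each in FAT4 and CELSR1 and 2 in CELSR3, while FAT3 and DCHS1 had 0. In the last 10 kb lay 14 of these 45 (31.1%, interval 18.2 to 46.6), against 55.9% over all genes. FAT1 had 0 of 62 in the first 10 kb and 11 of 62 (17.7%) in the last, so with FAT1 included the share in the first 10 kb was 24.3%.

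A site within 10 kb of each end was seen in FAT4 and the 3 CELSR genes, 4 of the 7 bound giant cadherins, and in 18.7% of the 3001 genes of that span with 3 or more sites. Having every site in one or the other end zone, and both zones occupied, was true of the 3 CELSR genes and of 11.4% of the 3001. The 3001 genes were not matched to the CELSR genes in span or number of sites. In CELSR2 and CELSR3 the zone between the ends was only 6.21 and 6.42 kb long. Sites in the outermost 1 kb at each end were also counted. The first 1 kb held 0 of the 107 sites, against 3.28% of sites in all genes of 10 kb or more. The interval, 0 to 3.39%, contains that share, and FAT1, with 62 of the 107, had no site within 17.0 kb of its 5′ end. The terminal 1 kb held 4 (3.74%, interval 1.03 to 9.30), 3 in FAT1 and 1 in CELSR3, against 12.7%. The last 2 kb held 14 (13.1%), against 24.2%.

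**Figure D3:**
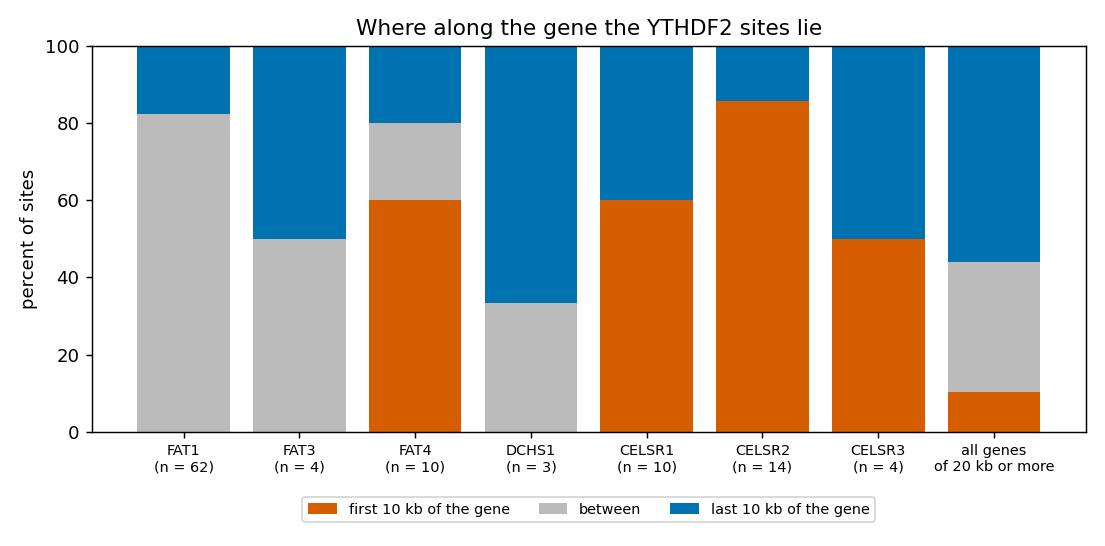
Percent of each gene's sites in the first 10 kb, in the last 10 kb and between, for the 7 bound giant cadherins and, at the right, for all genes spanning 20 kb or more. FAT4, CELSR1, CELSR2 and CELSR3 have 50.0% or more of their sites in the first 10 kb, against 10.4% over all genes.

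Close pairs of sites were found in 3 of the genes. Of the 107 sites, 31 (29.0%, interval 20.6 to 38.5) had another site of the gene within 50 nt, against 29.7% of all assigned sites. They comprised 22 in FAT1, 5 in CELSR2 and the group of 4 near the 3′ end of CELSR1, while FAT3, FAT4, DCHS1 and CELSR3 had none. Near neighbours count each other, so these sites are not independent and the interval covers counting only. The median distance between consecutive sites of a gene was 208 nt in the giant cadherins, 165 nt in FAT1 alone, and 151 nt over all genes. A run of 10 or more sites was found in FAT1 and CELSR2, 2 of 7 genes, and in 453 of the 7421 genes with a site (6.10%). Such a run needs 10 or more sites, which FAT4 and CELSR1 also had, as did 928 of all genes with a site. The genes were chosen by their numbers of sites, so nothing is read from this difference. The central run of FAT1 was 1 of 41 runs with 20 or more sites in the list.

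In several runs the highest score stood at an outermost site, as in both large runs of FAT1. Among the 11 runs of 3 or more sites in the giant cadherins this was so in 8, against 43.2% of 4533 such runs in all genes. Among runs of 10 or more it was so in 3 of 3, the third being the 5′ run of CELSR2 with 23.3 at 109253286, against 12.3% of 470. The share of a run's sites that are outermost averaged 37.5% in the 11 runs and 44.7% in the 4533. For runs of 10 or more it averaged 13.1% in the giant cadherins and 16.1% in all genes. Most of the 11 runs lay in FAT1 alone. The pattern was noticed in these runs and then counted, so it is given as a description.

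The highest scores belonged to FAT1, although the ranges of the genes overlapped. The 62 sites of FAT1 ranged from 0.112 to 252 with a median of 12.8. Of them, 37 (59.7%, interval 46.4 to 71.9) were at or above the list's median of 8.67. The 45 sites of the other giant cadherins ranged from 0.0287 to 38.1 with a median of 5.42. Of them, 14 (31.1%, interval 18.2 to 46.6) were at or above the list's median. Sites in the top 5.00% of scores, which begin at 75.9, numbered 5 in FAT1 (8.06%, interval 2.67 to 17.8) and 0 in the others. Over all 107 sites that was 4.67%, near the share of the list. By gene, medians were 8.27 in CELSR2, 6.88 in FAT3, 6.19 in CELSR1, 5.61 in CELSR3, 4.13 in DCHS1 and 3.98 in FAT4. With every site included, the giant cadherins had a median of 8.20 and quartiles of 4.09 and 17.2, against 8.67, 3.75 and 20.8 for all assigned sites.

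**Figure D4:**
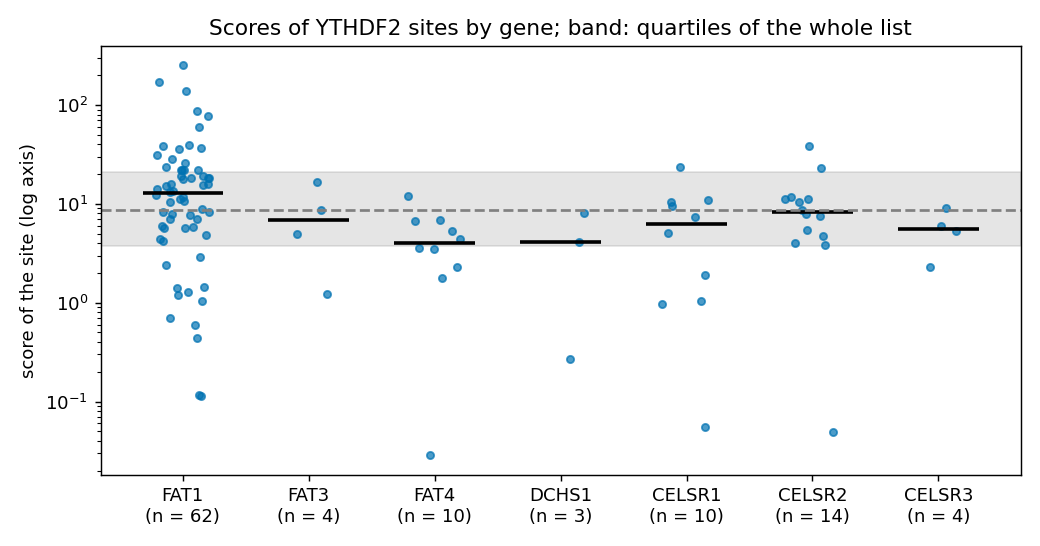
Score of each site (points, log axis) in the 7 bound giant cadherins, with black bars at gene medians, a grey band between the quartiles of the whole list, 3.75 and 20.8, and a dashed line at its median, 8.67. FAT1 has the highest median, 12.8.

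The list repeats some positions on 2 rows with separate scores. By row order it falls into 4 blocks per strand, and the first 2 blocks of each strand, 8935 rows, are called here the shorter part and the rest, 34243 rows, the longer part; neither carries a label. Of the 107 sites, 18 (16.8%) were in both parts, against 14.8% of all positions, comprising 14 in FAT1, 3 in CELSR1 and 1 in CELSR2. Another 11 (10.3%) were in the shorter part alone, against 8.96%. By share, 22.6% of FAT1 sites (interval 12.9 to 35.0) and 8.89% of those of the other giant cadherins (interval 2.48 to 21.2) were in both parts. These intervals overlap, and both contain the 14.8% of all positions. The higher score was used above where a site had 2. With the lower score instead, the median over the 107 sites was 6.85, against 8.20.

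The highest scores of FAT1 came from the longer part. The site at 186709677 scored 25.2 in the shorter part and 252 in the longer, that at 186617944 scored 8.85 and 173, and that at 186709397 scored 11.9 and 76.7. Over the 14 FAT1 sites in both parts, the longer part scored higher in 9, the shorter in 3, and 2 were equal within 0.01. Counting any difference, however small, the shorter part scored higher at 4 of the 14 (28.6%), against 28.8% over all assigned positions on 2 rows. By the same count it scored higher at 4 of 4 in CELSR1 and CELSR2, for example 10.9 against 3.19 at 46536236. FAT1 also had 2 runs made entirely of sites of the shorter part, 3 sites from 186628195 to 186628623 and the pair at 186606089 and 186606116, with scores from 0.698 to 2.42.

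**Figure D5:**
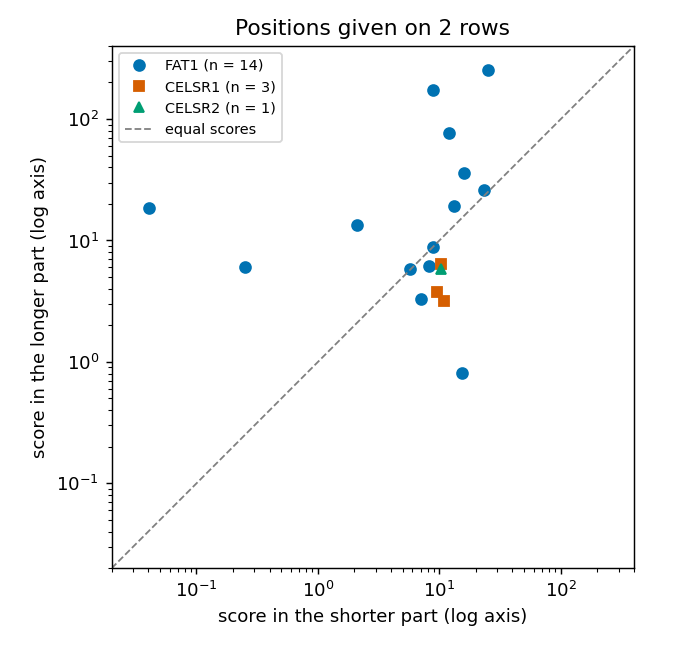
Scores of the 18 giant cadherin sites given on 2 rows, in the shorter part (x, log axis) and in the longer part (y, log axis), with a dashed line of equal scores. The 4 CELSR sites lie below the line and 9 of the 14 FAT1 sites above it.

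Partners of the giant cadherins were examined as lists of genes, for which 37.2% of all protein-coding genes with a site is the background. That background takes in every protein-coding gene, whether or not the cells make its mRNA. These lists, and those of other cadherins below, were chosen with earlier results of these data known. No test was made on them, and nothing is read from their shares. Of 11 genes around Fat and Dachsous, 8 (72.7%) had a site. FJX1, the relative of the fly kinase Four-jointed that acts on Fat and Dachsous cadherin repeats, had 15 sites in a single run, and the scaffold gene DLG5 had 13, the scaffold gene HOMER1 8 and the myosin gene MYO18A 3. Of 27 Hippo pathway genes, 20 (74.1%) had a site. The kinase gene LATS1 had 22, the angiomotin genes AMOT and AMOTL1 15 and 13, and NF2, which encodes merlin, 6. Of 23 planar cell polarity genes, 17 (73.9%) had a site, with 10 in each of VANGL1 and FZD3, which act beside CELSR proteins, 9 in ROR1 and 5 in SEC24B, which encodes an export adaptor for Vangl proteins. The genes named are those with the most sites in each list. Over the bound genes of the 3 lists, in the order given, the median was 3, 4 and 3 sites, against 3 over all genes with a site. Having 10 or more was true of 2 of 8, 3 of 20 and 2 of 17, and of 12.5% of all genes with a site.

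Other cadherins differed widely. Of 32 classical and related cadherin genes 3 (9.38%) had a site, CLSTN1 with 7, CDH2, which encodes N-cadherin, with 4 and CDHR1 with 1, and CDH1, which encodes E-cadherin, had 0. Of 12 protocadherins outside the gene clusters, 6 (50.0%) had a site. Having 10 or more was true of 3 of these 6, and of 12.5% of all genes with a site. In PCDH7 21 of 24 sites formed 1 run, in PCDH10 20 of 22 and in PCDH9 16 of 18, whereas the largest run of FAT1 held 20 of 62. PCDH17, next by number of sites, had 5, with 3 in its largest run. Which of these mRNAs the cells make, and at what level, was not measured in the list.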

How the data were processed

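Per the file itself, the authors deposited 1 list without a header, in which each row holds a chromosome, a single base, a strand and a score. The sources used here do not give the score's scale or normalization, the site caller or how replicates were pooled. Per the submitters' processing notes, FastQC 0.11.8, STAR 2.7.3a, UMI-tools 1.0.0, bedtools 2.27.1 and the build GRCh38.p12 were used, with no role or order given. With 0 columns of a single sample, groups are known from the labels alone, no test across libraries was made, and whether replicates were separate cultures is not stated.

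Repeated rows of a position became 1 site with the higher score, and positions count from 1. Gene spans and symbols came from a RefSeq table on GRCh38.p14, in which all 9 symbols matched; patches leave the main chromosomes unchanged. Sites were given to the gene on whose majority strand they fell (95.4% assigned), a strand that was also that of the RefSeq promoter table in 99.9% of 6198 genes. Assignment was tested on simulated positions. The genes and lists were chosen with earlier results of these data known. Named are all 9 giant cadherins and up to 4 genes with the most sites per list; the part of this rule on proteins of 3000 or more residues was not applied, as no protein table was used here. Runs, end zones and run edges were chosen after seeing the data. Python 3.11.15 was used. The alternatives tried joined near positions, kept high scores or 1 part of the list, or changed window sizes.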

Additional observations from a re-analysis of the deposited data

How the results depend on the processing

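The 107 sites became 51 with sites at or above the median score, 21 at or above the upper quartile of score and 29 in the shorter part of the list, and the 62 of FAT1 became 37 at or above the median score and 21 in the shorter part. The median score was 5.42 without FAT1. Sites with a near neighbour were 13.1% at a distance of 20 nt, 46.7% at 100 nt, 11.8% with sites at or above the median score and 20.0% without FAT1. With windows of 2 kb, the last part of the gene held 13.1% and the first 6.54%. The share within 10 kb of the 5′ end was 57.8% without FAT1. The median of sites per kb was 0.0303 with sites at or above the median score. Each of these settings changed the sites, the window or the genes counted, and why the values moved was not tested. Joining positions within 50 nt left 90 sites, the longer part 96, and dropping positions in a second gene 107. FAT1's largest run held 14 sites with gaps up to 500 nt and 20 with gaps up to 2000 nt. Sites per 1000 residues and the DRACH motif were not run, as no protein or genome sequence was used here. No paired analysis was possible because the list has no values per library. Depth behind a site is unknown.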

Other observations

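Some further gene lists were counted beside the 37.2% of all protein-coding genes with a site. Of 21 other adhesion G protein-coupled receptor genes, the family to which CELSR genes belong by their membrane part, 8 (38.1%) had a site, a share near that of all genes. The latrophilin genes ADGRL2, ADGRL1 and ADGRL3 had 25, 12 and 7, and ADGRA3 had 9. In ADGRL2, 15 of the 25 sites formed 1 run and the highest score was 164. Of 8 catenin genes, whose proteins tie classical cadherins to the cytoskeleton, 4 (50.0%) had a site, with 13 in CTNNB1, which encodes β-catenin, 10 in CTNND1, 2 in CTNNA1 and 1 in CTNNAL1. Of 7 desmosomal cadherin genes, 3 (42.9%) had a site, with 9 in DSG2 and 1 each in DSC2 and DSC3. No test was made on these lists, and nothing is read from their shares.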
